A study of Mus musculus with 4 samples.

Results

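Genes of the cytosolic ribosomal proteins were examined in astrocytes isolated from the mouse cerebral cortex at postnatal day 5, in 2 libraries labelled KO and 2 libraries labelled WT. They were chosen by name and by the biotype protein_coding, which gave 90 of the 23475 genes in the deposited tables. Of these, 55 carried a large subunit name (Rpl, Rplp) and 35 a small subunit name (Rps, Rpsa). The names covered 76 genes that are the usual source of a ribosomal protein (46 large, 30 small), 6 paralogues and 7 gene copies annotated as protein-coding although their names carry the -ps of a pseudogene. The last name, Rps19bp1, belongs to a protein that binds RPS19 and is no part of the ribosome. It was left out of all sums and medians except those of the authors' deposited tables. It stays among the members searched for promoters and copies. Not every cytosolic ribosomal protein gene is covered, and S6 kinases were left out.

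The KO libraries came from PD1cKO-Cx3 mice and the WT libraries from PD1fl/fl mice, in which the PD-1 gene is floxed. PD-1, encoded by Pdcd1, is an inhibitory receptor of immune cells, and the comparison asks what its conditional deletion changes in the astrocyte preparation. The labels give no more than this on the driver of the deletion, and neither sex nor the number of animals. The p-values thus measure only the spread between these libraries. In WT that spread may be technical. The 2 KO libraries differ in sex-linked transcripts (given below), so they are not repeats of the same sample. The deposited counts add up to 16103987 and 16405245 in the 2 KO libraries, and to 16961160 and 14224519 in the 2 WT libraries. Pdcd1 had 20 counts in KO replicate 2, at most 4 in KO replicate 1 and 0 in both WT libraries, so it cannot check the labels.

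The ribosome has a small subunit, which reads the mRNA, and a large subunit, which joins the amino acids. Each cytosolic ribosomal protein is present in 1 copy per ribosome, apart from the paired stalk proteins RPLP1 and RPLP2, and cells make both sets in balance. Most of these mRNAs begin with a run of pyrimidines (C and T) at the transcription start, the TOP motif, through which mTORC1 controls mainly their translation. Almost every one of the genes has processed copies elsewhere in the mouse genome, which makes reads hard to place.

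The promoter windows below belong to genes described later, and most were chosen because they hold that start motif. Of the 90 members, 63 had a promoter in the RefSeq table (GRCm38.p6). A run of at least 8 C or T on the gene's strand, anywhere from 20 bases before to 20 bases after the start, was found in 30 of these 63 (47.6%), in 19 of 38 large and in 11 of 24 small subunit genes. It was found in 18.4% of all 27025 genes in that table, and in 13 of 69 genes of mitochondrial ribosomal proteins (18.8%). On the other strand, where the run is read as G and A, it was found in 7.94% of the members and in 20.2% of all genes. Each line gives 30 bases, from 10 before the start to 20 after it, with the bases of such runs in capitals.
Rpl15, chr14:18270967-18270996, minus strand: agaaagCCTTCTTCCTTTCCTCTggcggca
Rpl35, chr2:39005112-39005141, minus strand: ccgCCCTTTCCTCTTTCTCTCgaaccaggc
Rpl7a, chr2:26910797-26910826, plus strand: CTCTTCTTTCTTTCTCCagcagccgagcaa
Rps6, chr4:86857348-86857377, minus strand: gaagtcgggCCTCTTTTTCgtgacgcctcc
Rps9, chr7:3704031-3704060, plus strand: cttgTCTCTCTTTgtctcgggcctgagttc
Rps10, chr17:27635225-27635254, minus strand: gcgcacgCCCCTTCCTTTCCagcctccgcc
Rpl10, chrX:74270806-74270835, plus strand: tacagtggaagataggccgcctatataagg
Rpsa, chr9:120127756-120127785, plus strand: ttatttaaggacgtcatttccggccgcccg
The windows of Rpl10 and Rpsa hold no such run, which says only that these letters are not there at the start this table gives. Of other genes described later, whose windows are not printed, Rps2 and Rplp0 hold no run either, while Rpl4 and Rpl34 do.

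Counts placed on ribosomal protein genes took a small share of each library, and the share was lower in both KO libraries than in both WT libraries. Reads placed on copies of these genes are not in it, so it is no measure of all ribosomal protein transcripts. With the listed copies described below added, the share was 0.644% and 0.681% in KO, against 0.741% and 0.820% in WT. The summed counts of both subunits were 0.591% and 0.613% of the listed counts in the KO libraries, against 0.678% and 0.755% in the WT libraries. The groups did not overlap, and the 2 WT libraries lay further apart than WT replicate 1 lay from KO replicate 2. The mean share was 0.602% ± 0.0152 in KO and 0.716% ± 0.0547 in WT (SD, n = 2 each). With 2 libraries against 2, a two-sided exact permutation test cannot go below p = 0.333, so no test was made. In bulk libraries, fewer cells of a type and less RNA per cell cannot be told apart.

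The large subunit took 0.386% and 0.428% of the counts in the KO libraries, against 0.449% and 0.492% in the WT libraries. The small subunit took 0.205% and 0.185% in KO, against 0.229% and 0.263% in WT. Both subunits were thus lower in both KO libraries. The ratio of large to small subunit counts was 1.88 and 2.32 in the KO libraries, against 1.96 and 1.88 in the WT libraries. The ratio was highest in KO replicate 2, and KO replicate 1 lay between the WT libraries. Without Rps2 and Rpsa, a pair chosen after their values were seen, the ratio was 2.62 and 2.76 in KO, against 2.66 and 2.60 in WT.

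**Figure D1:**
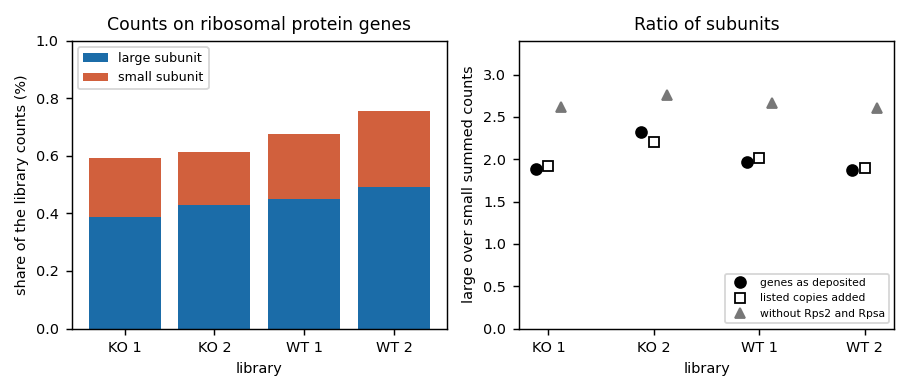
Left, percent of each library's counts on large and small subunit genes, stacked, for the 2 KO and then the 2 WT libraries. Right, ratio of large to small subunit counts per library, as deposited, with listed copies added to their parents, and without Rps2 and Rpsa. Both KO bars are lower than both WT bars, and the ratio of KO replicate 2 is 2.32 as deposited and 2.2 with copies.

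Levels per length differed widely among the 76 usual genes. RPKM (CPM divided by the length of the principal transcript in kilobases) ran from 0.676 for Rpl39 to 809 for Rpl4 as a mean over the 4 libraries, a 1197-fold range around a median of 24.8. Where several transcripts ranked equally, the longest was used. It had 5179 bases for Rps15a and 3706 for Rps20, with coding parts of 390 and 357 bases, which lowers their RPKM. The median was 25.02 RPKM for large and 21.4 RPKM for small subunit genes. Rpl4, whose protein lines the exit tunnel, was followed by Rplp0, the base of the stalk that recruits translation factors, at 511 RPKM, by Rps2 at 407 RPKM and by Rps6, the target of S6 kinases, at 392 RPKM. Towards the other end, Rpl38 had 1.06 RPKM and Rpl13a 1.28 RPKM, though other genes on the same strand overlap 59.3% of the Rpl13a transcript. Transcripts of proteins that the ribosome holds in equal numbers were thus far apart in these counts.

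The level went with the length of the coding part. The median was 10.8 RPKM in the 25 genes with a coding part under 400 bases, 16.5 RPKM in the 30 genes from 400 to 600 bases, and 86.3 RPKM in the 21 genes of 600 bases or more. Spearman's correlation across the 76 genes was 0.47 between RPKM and coding length, and 0.04 between RPKM and the number of near-identical copies in the annotation. Genes are not independent replicates, and all levels come from the same 4 libraries. Rpl41, with the shortest coding part at 75 bases, had 40.3 RPKM, and Rpl8, with 771 bases and no near-identical copy, had 5.99 RPKM. The part of coding length and of copies in these levels was not tested.

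**Figure D2:**
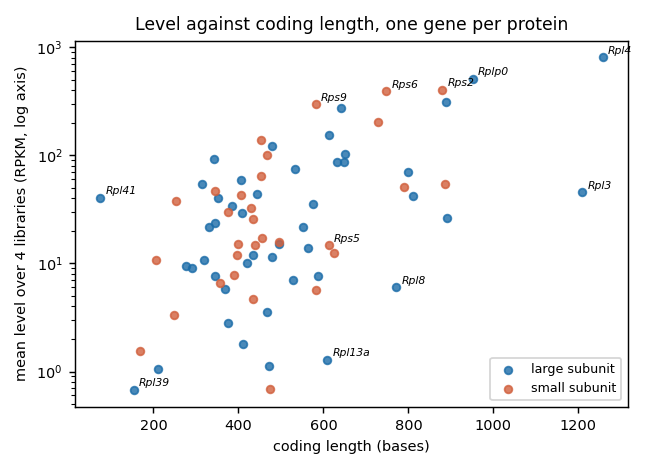
Mean level over the 4 libraries in RPKM (log axis) against coding length in bases, for the 76 genes that are the usual source of a ribosomal protein, coloured by subunit. Rpl4 at 809 RPKM is highest, and the genes of 600 bases or more have a median of 86.3 RPKM against 10.8 RPKM under 400 bases.

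In the fit across all genes, 86 of the 90 members passed the filter on low counts and were tested. Rpl3l, Rpl27-ps3, Rpl39 and Rps29 were not. With Rps19bp1 set aside, 85 genes remained, 52 large and 33 small. None of the 85 passed the threshold (edgeR quasi-likelihood test, Benjamini-Hochberg adjustment over 17696 genes), where 0.017% of all tested genes did. With an unadjusted p under 0.05, 5 members were lower and 0 higher in KO, beside 2.41% lower and 5.88% higher (8.29% together) of all tested genes. By DESeq2, 1 member passed, Rpsa, as lower (adjusted p = 0.0174), where 2.12% of all genes did, and by limma-voom 0 did (6 at an unadjusted p under 0.05).

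The direction of the fitted values leaned to lower in KO. The log2 fold change (KO over WT) was below 0 in 71 of 85 members, against 50.03% of all tested genes. Both KO libraries lay below both WT libraries in 47 of the 85, where 18.4% of all tested genes were so placed, and above them in 3, where 21.2% were (39.6% in either direction). Among these were Rpl8 and Rpl38, and Rpl38 had 11 and 13 counts in KO, against 3 and 4 in WT. In the large subunit 41 of 52 values were below 0 with a median of -0.27, and 25 had both KO libraries lowest. In the small subunit 30 of 33 were below 0 with a median of -0.35, and 22 had both KO libraries lowest. The median over all genes was 0.00. These members share libraries, and in reads that several copies can claim they are not independent.

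The difference between the subunits was small. The median of the large minus that of the small subunit was 0.08 on the log2 scale, and it was -0.02 among members of at least 100 CPM (counts scaled to library size by TMM), where the medians were -0.19 and -0.17. Without paralogues and -ps copies, a setting added after the data were seen, the medians were -0.26 and -0.37. Per library, the median deviation of the large subunit from each gene's mean over the libraries was -0.14 and -0.12 in KO, against 0.06 and 0.19 in WT, in log2 CPM. For the small subunit it was -0.16 and -0.15 in KO, against 0.03 and 0.25 in WT. WT replicate 2 was the highest library for both subunits, and without it the medians were -0.19 and -0.28.

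The direction was least uniform at low levels. Among members from 10 to 100 CPM, 41 of 42 were below 0 with a median of -0.33, against 50.5% of all genes at that level. Of at least 100 CPM, 12 of 13 were below 0 with a median of -0.17, against 52.9% of all genes at that level. Under 10 CPM, 18 of 30 were below 0 with a median of -0.20, against 48.5% of all genes at that level.

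**Figure D3:**
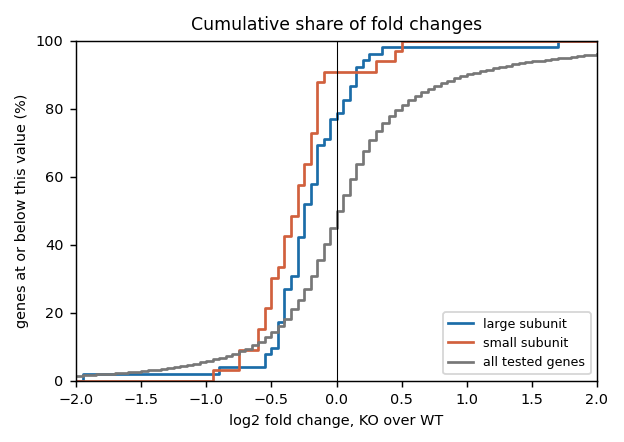
Cumulative percent of genes at or below each log2 fold change (KO over WT) for 52 large subunit genes, 33 small subunit genes and all 17696 tested genes. At 0 both subunit curves lie above the curve of all genes, which is at 50.03% there.

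**Figure D4:**
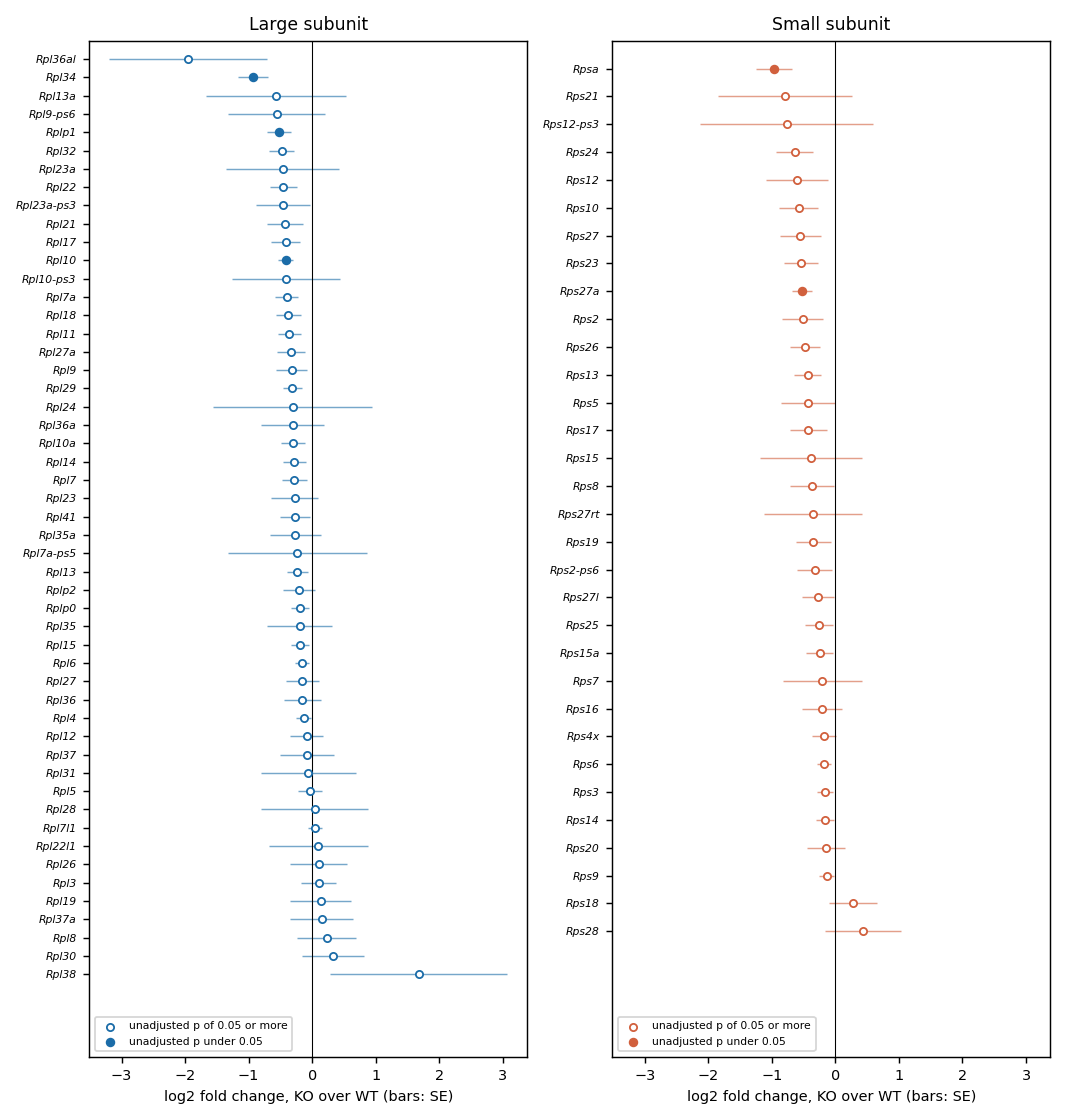
Log2 fold change (KO over WT) with its SE for the tested members that are reported singly, sorted within the large (left) and small (right) subunit. Filled points have an unadjusted p under 0.05, all 5 are below 0, and none passed after adjustment over all genes.

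Rpl34, a large subunit protein, had the lowest p of all members. It had 17.4 CPM in each KO library, against 33.8 and 32.9 CPM in the WT libraries. The groups were far apart and the replicates close, at 17.4 ± 0.0572 CPM in the KO group and 33.3 ± 0.631 CPM in the WT group (SD, n = 2 each). The log2 fold change was -0.94 ± 0.23 (SE; edgeR, adjusted p = 0.37). A copy of Rpl34, described below, moved the other way. With all listed copies added, a setting not planned beforehand, the log2 fold change of Rpl34 was -0.52 ± 0.22 (SE; edgeR, adjusted p = 0.62).

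Rpl10, the X-linked gene of a protein that joins the large subunit late, had 196 and 205 CPM in the KO libraries, against 261 and 275 CPM in the WT libraries. Both KO libraries were lower, and replicates lay close together. The log2 fold change was -0.42 ± 0.12 (SE; edgeR, adjusted p = 0.45). Rpl32 had 41.8 and 48.2 CPM in KO, against 58.7 and 66.7 CPM in WT, again without overlap. Its log2 fold change was -0.48 ± 0.20 (SE; edgeR, adjusted p = 0.61).

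Of the stalk genes, Rplp1 had 38.1 and 38.3 CPM in the KO libraries, against 53.3 and 56.1 CPM in the WT libraries. Its log2 fold change was -0.52 ± 0.19 (SE; edgeR, adjusted p = 0.54). Rplp2, whose protein pairs with RPLP1, had 22.9 and 19.7 CPM in KO, against 26.0 and 23.2 CPM in WT, a log2 fold change of -0.21 ± 0.25 (SE). Rplp0 had 566 and 728 CPM in KO, against 745 and 738 CPM in WT, with KO replicate 1 well below the other 3 libraries. All 3 stalk genes were lower in both KO libraries, as were 47 of the 85 tested members and 18.4% of all tested genes. None of the 3 passed.

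Among the large subunit genes with the most counts, Rpl4 and Rpl6 differed little. Rpl4 had 1107 and 1264 CPM in the KO libraries, against 1212 and 1393 CPM in the WT libraries, and the groups overlapped. Its log2 fold change was -0.14 ± 0.11 (SE), and it moved to -0.03 without WT replicate 2. Rpl6 had 358 and 394 CPM in KO, against 423 and 419 CPM in WT, a log2 fold change of -0.16 ± 0.11 (SE). Neither passed (edgeR, adjusted p = 0.85 and 0.80).

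Rpsa, a small subunit protein also known as the laminin receptor precursor, had the lowest fold change of the small subunit. It had 91.1 and 52.7 CPM in the KO libraries, against 127 and 154 CPM in the WT libraries. The groups did not overlap, and KO replicate 2 was lowest. The log2 fold change was -0.97 ± 0.28 (SE; edgeR, adjusted p = 0.46), and -0.63 without KO replicate 2. Rps27a, which encodes ubiquitin joined to a small subunit protein, had 65.0 and 64.8 CPM in KO, against 90.4 and 96.8 CPM in WT. Its replicates lay close together, with a log2 fold change of -0.53 ± 0.16 (SE; edgeR, adjusted p = 0.46).

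Rps24 and Rps26, both mutated in human Diamond-Blackfan anaemia, were lower in both KO libraries. Rps24 had 18.6 and 19.99 CPM in KO, against 24.3 and 35.9 CPM in WT, a log2 fold change of -0.64 ± 0.29 (SE). The WT libraries of Rps24 lay far apart, and without WT replicate 2 the value was -0.33. Rps26 had 23.9 and 28.8 CPM in KO, against 35.3 and 38.4 CPM in WT, a log2 fold change of -0.48 ± 0.23 (SE). Neither passed (edgeR, adjusted p = 0.65 and 0.67).

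Of the small subunit genes with the most counts, Rps2 had 489 and 244 CPM in the KO libraries, against 477 and 571 CPM in the WT libraries. KO replicate 1 lay between the WT libraries, and KO replicate 2 was the lowest library. The log2 fold change of -0.52 ± 0.32 (SE) was -0.10 without KO replicate 2. Rps3, which lies at the mRNA entry, had 344 and 386 CPM in KO, against 388 and 431 CPM in WT, a log2 fold change of -0.17 ± 0.12 (SE). Rps6 had 325 and 322 CPM in KO, against 350 and 379 CPM in WT, a log2 fold change of -0.17 ± 0.11 (SE). Rps3 and Rps6 did not overlap between groups, and neither passed.

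The other genes whose promoter windows are shown above, chosen for that motif, were also lower or overlapped. Rpl15 had 268 and 286 CPM in the KO libraries, against 286 and 346 CPM in the WT libraries, and KO replicate 2 and WT replicate 1 were nearly equal. Rpl7a, the gene with the most near-identical copies, had 51.1 and 60.4 CPM in KO, against 73.3 and 74.2 CPM in WT (log2 fold change -0.40 ± 0.18, SE). Rps9 had 250 and 267 CPM in KO, against 275 and 294 CPM in WT (log2 fold change -0.14 ± 0.12, SE). Rpl7a and Rps9 did not overlap between groups, and neither passed. Rps10, whose exons overlap another gene, had 11.62 and 11.04 CPM in KO, against 15.9 and 17.9 CPM in WT. Rpl35 had 5.12 and 5.03 CPM in KO, against 4.68 and 6.95 CPM in WT, so the KO libraries lay between the WT libraries.

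Values above 0 were few and none passed. Rpl30 had 9.44 and 5.58 CPM in the KO libraries, against 5.57 and 6.40 CPM in the WT libraries, with a log2 fold change of 0.33 ± 0.49 (SE) that rested on KO replicate 1 and was -0.10 without it. Rpl8 had 6.25 and 6.93 CPM in KO, against 5.16 and 6.12 CPM in WT (log2 fold change 0.23 ± 0.46, SE, and 0.11 without WT replicate 1). Rpl3, a protein near the peptidyl transferase centre, had 79.7 and 48.2 CPM in KO, against 59.6 and 59.7 CPM in WT (log2 fold change 0.10 ± 0.27, SE). The KO libraries of Rpl3 lay on either side of the WT libraries, and its value was -0.30 without KO replicate 1. In the small subunit, Rps28 had 6.19 and 4.54 CPM in KO, against 2.79 and 5.14 CPM in WT, and Rps18 had 11.4 and 9.51 CPM in KO, against 7.70 and 9.59 CPM in WT. Both overlapped between groups, with log2 fold changes of 0.44 ± 0.60 and 0.28 ± 0.38 (SE), which were 0.06 and 0.13 without WT replicate 1 and 0.20 and 0.14 without KO replicate 1.

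The paralogues did not move together. Rpl7l1, whose protein acts in the assembly of the large subunit, had the highest level per length of them (126 RPKM over the 4 libraries), with 319 and 348 CPM in the KO libraries, against 316 and 334 CPM in the WT libraries, with a log2 fold change of 0.04 ± 0.11 (SE). Rpl22l1 had 4.50 and 2.82 CPM in KO, against 5.10 and 1.74 CPM in WT, and its parent Rpl22 had 50.8 and 66.7 CPM in KO, against 73.4 and 88.0 CPM in WT. Only the parent was lower in both KO libraries. Rps27l, a paralogue of Rps27, had 24.0 and 19.1 CPM in KO, against 26.1 and 25.9 CPM in WT. Rps27rt had 2.69 and 1.90 CPM in KO, against 3.61 and 2.22 CPM in WT, and these groups overlapped. Rpl36al had 11 and 3 counts in the KO libraries, against 32 and 22 in the WT libraries, with a log2 fold change of -1.96 ± 1.24 (SE; edgeR, adjusted p = 0.78). Rpl3l, the muscle paralogue of Rpl3, had 5 counts in WT replicate 2 and at most 4 in each other library.

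The -ps copies had few counts, apart from Rps2-ps6 and Rpl23a-ps3. Rps2-ps6 had 14.8 and 14.9 CPM in the KO libraries, against 18.3 and 19.0 CPM in the WT libraries. Rpl23a-ps3 had 6.999 and 5.64 CPM in KO, against 7.94 and 9.39 CPM in WT. Rpl9-ps6, Rpl10-ps3, Rps12-ps3, Rpl7a-ps5 and Rpl27-ps3 lay between 0.119 CPM and 3.82 CPM in each library. All 6 tested copies had a log2 fold change below 0, with a median of -0.43, and 2 had both KO libraries lowest, where 18.4% of all tested genes did. The value of Rps12-ps3 was above 0 when KO replicate 1 (0.0042) or WT replicate 2 (0.40) was left out.

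Reads from these genes can be split with their copies. By comparison of the annotated transcripts, 86 of the 90 members had at least 1 other gene of 90% identity or more over at least 50% of the coding part, with a median of 10 and at most 84 (Rpl7a) among the usual genes. The sources used here do not say how reads that match several places were counted. The files listed counts for 313 such genes outside the members, here called copies. Their counts summed to 8528 and 11321 in the KO libraries, against 10863 and 9343 in the WT libraries. The sums take in whole counts of genes not named as ribosomal, such as Gins1, matched to Rpl41, and Wdr89, matched to Rplp2. Gins1 had 506 and 637 counts in KO, against 881 and 406 in WT. With all listed copies added, these counts go to Rpl41 and Rplp2. Of 148 tested, 0 passed (edgeR), where 0.017% of all tested genes did, and the median log2 fold change was -0.30. The unadjusted p was under 0.05 for 2 higher and 2 lower copies, beside 5.88% higher and 2.41% lower of all tested genes. Exons of 6 members overlapped another gene on the same strand, over 50% of the transcript in Rpl13a, Rpl24 and Rps10, and over 26.0% in Rpl36al. Exons of 15 members overlapped a gene on the opposite strand (Rpl30, Rps25, Rps27a and Rps28 among them), most of all Rpl35 at 68.3% of the transcript. The sources do not say whether counting used the strand. Those values are uncertain.

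For 4 parents, chosen after their values were seen, parent and copy shifted between libraries. The lines below give 60 bases of the coding part of each parent and of its copy (from the GENCODE M21 transcripts, GRCm38), with the differing bases in capitals, because a read must cover such a base to be told apart.
Rps2: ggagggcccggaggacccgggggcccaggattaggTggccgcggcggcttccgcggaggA
Rps2-ps13: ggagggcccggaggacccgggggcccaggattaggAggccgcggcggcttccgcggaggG
Rpsa: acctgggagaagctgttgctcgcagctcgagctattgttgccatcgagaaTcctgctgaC
Rpsa-ps10: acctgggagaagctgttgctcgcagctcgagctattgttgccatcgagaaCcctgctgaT
Rpl3: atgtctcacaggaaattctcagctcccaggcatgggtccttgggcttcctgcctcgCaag
Rpl3-ps1: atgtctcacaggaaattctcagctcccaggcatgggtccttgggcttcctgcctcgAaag
Rpl34: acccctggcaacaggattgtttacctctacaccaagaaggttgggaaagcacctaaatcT
Rpl34-ps1: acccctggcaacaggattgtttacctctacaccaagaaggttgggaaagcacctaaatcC
Counted from 1 at the first coding base, the parent's base first, these are T60A and A84G for Rps2, T210C and C219T for Rpsa, C57A for Rpl3 and T132C for Rpl34. Over the whole coding part the copies differ at 7 of 879 bases for Rps2 (chr17:24718116-24721929, copy at chrX:52898588-52899469), at 6 of 885 for Rpsa (chr9:120127689-120132369, copy at chr3:150072658-150073542), at 2 of 1209 for Rpl3 (chr15:80077794-80091868, copy at chrX:13202571-13203780) and at 2 of 351 for Rpl34 (chr3:130726831-130730398, copy at chr6:71124610-71124963). All 4 copies are annotated as processed pseudogenes.

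Rps2-ps13 had 83 and 1660 counts in the KO libraries, against 88 and 55 in the WT libraries, or 1.05% and 29.4% of parent and copy together in KO, against 1.08% and 0.665% in WT. Rpsa-ps10 had 58 and 601 counts in KO, against 130 and 116 in WT, or 3.83% and 41.1% of the pair, against 5.70% and 4.97%. Both copies were high in KO replicate 2, the library in which both parents were lowest. Added together, Rps2 and Rps2-ps13 had 494 and 346 CPM in KO, against 482 and 575 CPM in WT, so KO replicate 2 was still lowest. Rpsa and Rpsa-ps10 had 94.7 and 89.6 CPM in KO, against 135 and 162 CPM in WT, which brought the KO libraries close together. With all listed copies added, Rpsa had a log2 fold change of -0.69 ± 0.16 (SE; edgeR, adjusted p = 0.34) and Rps2 of -0.33 ± 0.18 (SE; adjusted p = 0.71).

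Rpl3-ps1 had 67 and 355 counts in the KO libraries, against 440 and 403 in the WT libraries. It was low in KO replicate 1, where Rpl3 was highest. Added together, the pair had 83.9 and 70.0 CPM in KO, against 85.6 and 87.7 CPM in WT, and the fitted log2 fold change of Rpl3 was -0.17 ± 0.17 (SE) with all listed copies added, against 0.10 as deposited. Rpl34-ps1 had 123 and 138 counts in KO, against 42 and 59 in WT, or 30.6% and 32.8% of the pair in KO, against 6.86% and 11.1% in WT. Added together, Rpl34 and Rpl34-ps1 had 25.1 and 25.8 CPM in KO, against 36.3 and 37.0 CPM in WT. The split thus differed between groups for Rpl34, while for the other pairs 1 library stood apart.

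**Figure D5:**
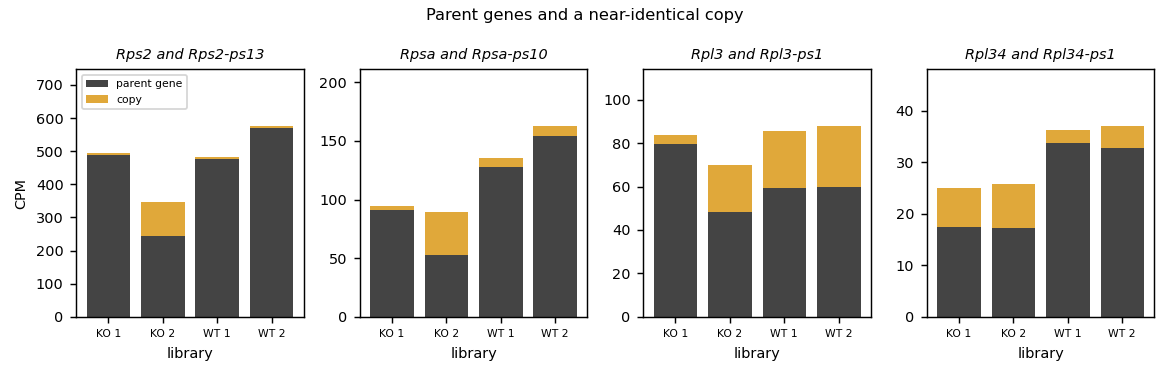
CPM of a parent gene (dark) and of its near-identical processed pseudogene (yellow), stacked, in the 2 KO and then the 2 WT libraries, for 4 pairs. The copies of Rps2 and Rpsa reach 29.4% and 41.1% of the pair in KO replicate 2, the copy of Rpl3 is at 4.99% in KO replicate 1, and the copy of Rpl34 holds 30.6% and 32.8% in KO against 6.86% and 11.1% in WT.

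Genes of related function gave smaller medians. Of the ribosomal genes that the names leave out, Fau had a log2 fold change of -0.09 ± 0.25 (SE), and Rack1 had 112 and 110 CPM in the KO libraries, against 134 and 125 CPM in the WT libraries, with a log2 fold change of -0.22 ± 0.14 (SE). Of 35 tested genes of ribosome biogenesis 23 were below 0, with a median of -0.09, and Nob1, the endonuclease that trims the small subunit rRNA, had a log2 fold change of -0.47 ± 0.14 (SE). Rrs1 and Rrp12 were at -0.37 and -0.76. Of 38 translation factors 25 were below 0, with a median of -0.05, and Btf3, Eif1ax and Eif2s3x were at -0.35, -0.23 and -0.34. Of 76 mitochondrial ribosomal proteins 45 were below 0, with a median of -0.06, and Mrpl1, Mrpl47 and Mrpl50 were at -0.58, -0.76 and -0.41. Of 26 genes of the mTORC1 pathway 12 were below 0, with a median of 0.02. Sesn1, which restrains mTORC1, and Eif4ebp2, a repressor of eIF4E, were at 0.48 and 0.55, and Akt1s1 at -0.39. No gene of these lists passed over all genes (edgeR). With an unadjusted p under 0.05, 3 biogenesis genes, 1 translation factor, 2 mitochondrial ribosomal proteins and 1 mTORC1 gene were lower, and 2 mTORC1 genes were higher. Of all tested genes, 2.41% were lower and 5.88% higher by that measure. The genes named from each list are those with the lowest p.

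Markers of other cells differed between the same libraries. All 15 microglia markers were fitted above 0 (median log2 fold change 1.88, 1 passed), and their summed level was 4124 to 4861 CPM in the KO libraries, against 905 to 1334 CPM in the WT libraries. Endothelial markers summed to 456 to 841 CPM in KO, against 205 to 348 CPM in WT, and oligodendrocyte lineage markers to 1123 to 1287 CPM, against 784 to 843 CPM. Pericyte and smooth muscle markers summed to 551 to 825 CPM in KO, against 419 to 461 CPM in WT, and red blood cell markers to 51.1 to 75.4 CPM, against 20.4 to 20.6 CPM. Astrocyte markers summed to 6260 to 6893 CPM in KO, against 6655 to 7064 CPM in WT, and neuron markers to 1395 to 1453 CPM, against 1526 to 1773 CPM. No marker in these lists was at 0 in all 4 libraries, and the astrocyte water channel gene Aqp4 had 20103 to 21318 counts in KO, against 16950 to 22183 in WT. KO replicate 2 also had 2472 counts of the Y-linked Ddx3y and 0 of Xist, against 0 of Ddx3y and at least 6732 of Xist in each other library. The part of cell makeup and of sex in the ribosomal protein values was not tested.

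The authors' deposited tables, each setting 1 KO against 1 WT library, marked 6 to 9 members as significant, where they marked 27.6% to 31.6% of all genes. In each table the marked genes were those with a log2 fold change of 1 or more in size and the authors' p under 0.05, with 0 exceptions. By the p of the authors' deposited tables alone, 48 to 63 of the 89 or 90 listed members were under 0.05, where 64.8% to 69.8% of all genes were. Between 63 and 79 members had a log2 fold change below 0 in the authors' deposited tables, where 47.2% to 49.5% of all genes were below 0. Their median log2 fold change over the members was -0.20 for KO replicate 1 and -0.21 for KO replicate 2 over WT replicate 1, and -0.38 and -0.35 over WT replicate 2. Over WT replicate 1, 4 members were marked higher and 4 lower for KO replicate 1, and 3 higher and 3 lower for KO replicate 2. Over WT replicate 2, 1 was marked higher and 6 lower for KO replicate 1, and 1 higher and 8 lower for KO replicate 2. Rpl36al, lower in KO, was the member marked in all 4 tables. Rpl38, higher in KO, was marked in every table but that of KO replicate 1 over WT replicate 2. Rpsa was marked in both tables of KO replicate 2, and Rps2 in that of KO replicate 2 over WT replicate 2, both as lower. These member counts and medians include Rps19bp1. The tables share libraries, so they are not separate evidence.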

How the data were processed

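The authors deposited 4 tables, each with raw counts per gene for 1 KO and 1 WT library, per the file headers. The log2 fold change that the authors deposited is a ratio of their normalized values, and the deposited p-value comes from a test the file headers do not name. The submitters' processing notes list HTSeq 0.6.0, TopHat2 2.0.12 and Bowtie2 2.2.3. Roles and strand use are not given in the sources used here. Their notes name mm9, but 21279 of 23475 gene positions (90.6%) were identical to GENCODE M21 (GRCm38), which was used. The tables were joined by gene, and a count missing from all of them (at most 4) was set to 0.

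Groups were compared with edgeR 4.0.16 in R 4.3.3 (TMM scaling, quasi-likelihood test, minimum count 10, adjusted p threshold 0.05), which left 2 residual degrees of freedom. CPM used the total of the tested genes scaled by TMM. Copies were found with blastn 2.17.0. Each script for a test across genes was tested on simulated data. Of 100 simulated 2-fold shifts, 26 passed by edgeR, 30 by DESeq2 and 28 by limma-voom. Of 100 simulated 4-fold shifts, 59, 68 and 56 passed, in the same order. Unchanged genes that passed numbered 3, 29 and 3. Most 2-fold shifts were thus missed, so a gene that did not pass is not shown to be unchanged. Alternatives were DESeq2 1.42.0, limma-voom (limma 3.58.1), other scalings and filters, unlisted counts at their limit, pseudogenes added by name, a block for the replicate number, and each library left out. Adding all listed copies was a further alternative that was not planned beforehand.

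The members and lists were chosen with earlier results of these data known. Named genes were, per subunit, the 3 with the highest CPM and up to 4 with the lowest p in each direction (mean of at least 1 CPM), all paralogues and copies with at least 10 counts in a library, the stalk genes and Rpsa, 3 genes per related list, and Fau and Rack1. Members not named enter the counts, sums and medians, and some results are not reported here. The normalized columns were not used.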

Additional observations from a re-analysis of the deposited data

How the results depend on the processing

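The number of all genes past the threshold was 3 with edgeR, 373 with DESeq2 (316 higher, 57 lower), 28 with limma-voom, 56 without the filter on low counts and 68 at a mean of at least 5 CPM, and it ran from 0 to 42 when a library was left out. The 0 came without KO replicate 2, where the unadjusted p was under 0.05 for 613 higher and 408 lower genes, and the 42 without WT replicate 2. Among the members it was 0 with edgeR, 1 (Rpsa) with DESeq2, and 0 under each other alternative run. With the replicate block 4 genes and 0 members passed, with medians of -0.25 (large) and -0.33 (small) and a difference of 0.08. The replicate numbers share only a number, with a correlation of same-numbered deviations of 0.03.

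The median of the large subunit ran from -0.33 to -0.19 when a library was left out, that of the small subunit from -0.44 to -0.28, and their difference from 0.06 to 0.11. Among members of at least 100 CPM they were -0.19, -0.17 and -0.0186. The difference in share ran from -0.153 to -0.0756 percentage points when a library was left out, and the difference in ratio from -0.03 (without KO replicate 2) to 0.40 (without KO replicate 1), against 0.18 with all libraries. The cause was not tested. Of 45 named genes recomputed, 706 values in all, 694 kept their direction and their side of the threshold, 11 changed sign without a call in 6 members and Fau, and 1 came past the threshold, Rpsa by DESeq2. Members under 10 CPM are limited by depth.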
